A study of Mus musculus with 11 samples.

Results

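Mitochondrial biogenesis is run by a small set of nuclear genes, and 10 of them were followed here among the 25311 genes of the count matrix: Ppargc1a, Ppargc1b, Pprc1, Nrf1, Gabpa, Esrra, Tfam, Tfb2m, Polrmt and Polg. They were taken by name, and all 10 were in the matrix. The coactivators PGC-1α (Ppargc1a), PGC-1β (Ppargc1b) and PRC (Pprc1) do not bind DNA themselves but dock on transcription factors, among them NRF1, the Ets factor GABPA (also called NRF2α) and the orphan nuclear receptor ERRα (Esrra). These factors switch on nuclear genes of the respiratory chain and of mitochondrial DNA upkeep, including TFAM, which packs and helps transcribe mitochondrial DNA, TFB2M, which opens its promoters, the RNA polymerase POLRMT and the catalytic subunit of the DNA polymerase, POLG. In the retina, photoreceptors carry dense mitochondria in their inner segments and are among the most oxygen-hungry cells of the body, and PGC-1α is known there for its part in energy supply and stress resistance.

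Retinas of 11 C57BL/6J mice were dissociated with papain at postnatal day 10, and single cells were captured with inDrop, a droplet method in which each RNA molecule carries a tag of its own (a unique molecular identifier, UMI). Control mice (n = 3) were given PBS. Phase I ROP mice (n = 3) were a model of the early phase of retinopathy of prematurity. They were given STZ (streptozotocin), a toxin of insulin-producing cells that raises blood glucose, and the study describes them as littermates of the controls. Its methods also say that litters given STZ were kept smaller than litters without it. The other 2 groups were also given STZ, and the study describes them as littermates of each other. Mice of the ω-3 group (n = 2) were nursed by dams on an ω-3 LCPUFA diet (DHA and EPA, no AA). Mice of the ω-6 group (n = 3) were nursed by dams on an ω-6 LCPUFA diet (AA, no DHA or EPA). The labels do not name the dams, and mice of a diet may share a dam. Effects of diet and of dam cannot be told apart. All 8 mice of the diet and Phase I ROP groups thus carried the STZ treatment, and no mouse on either diet was without it. Effects of STZ on the retina through glucose and by other routes cannot be told apart.

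The 20033 cells with more than 300 genes were clustered and named from canonical markers as rod-like (9957 cells), bipolar-like (3596), amacrine-like (3130), Müller glia-like (1425) and cone-like (1126), with 6 smaller classes and 378 cells left unnamed. Of the 9 rod clusters only the largest (6984 cells) had rod markers among its leading genes. The others were named from the share of their cells with rod markers. None of the 10 genes was among the 2000 variable genes that set the clusters. Total UMIs ran from 2565568 to 6517776 per mouse. The mouse served as replicate, with its UMIs added up within each class, and levels are given as scaled CPM, which are UMIs relative to the class total (CPM) with the TMM scaling of edgeR over the 11 mice. A gene was called where edgeR's quasi-likelihood test gave a Benjamini-Hochberg adjusted p under 0.05 over all genes of the class, and all fold changes are fitted log2 values with their standard error (SE). The labels name the mice but no culture or litter number, so p-values measure the spread between these mice.

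The control libraries stood apart from the other 8 in ways that touch every comparison with them. The mitochondrial ribosomal RNAs and Rn7sk made up 4.04% ± 0.743 (SD, n = 3) of UMIs in controls and 0.684% ± 0.244 in Phase I ROP, while 11 immediate early and heat shock genes made up 0.0227% in controls and 0.232% in Phase I ROP. In all cells, 11 of 15 markers of handling and RNA quality were higher and 4 lower in Phase I ROP, among them Jun (3.13, SE 0.22) and Rn7sk (-5.82, SE 0.40). Their part in the results below was not tested. Control mice also gave few cone-like cells (from 13 to 46 in a mouse, where Phase I ROP mice gave 96 to 134), and 49% of control rod-like cells were in the largest rod cluster against 84.2% in Phase I ROP. At most 52 cell barcodes were shared by a pair of mice.

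**Figure D1:**
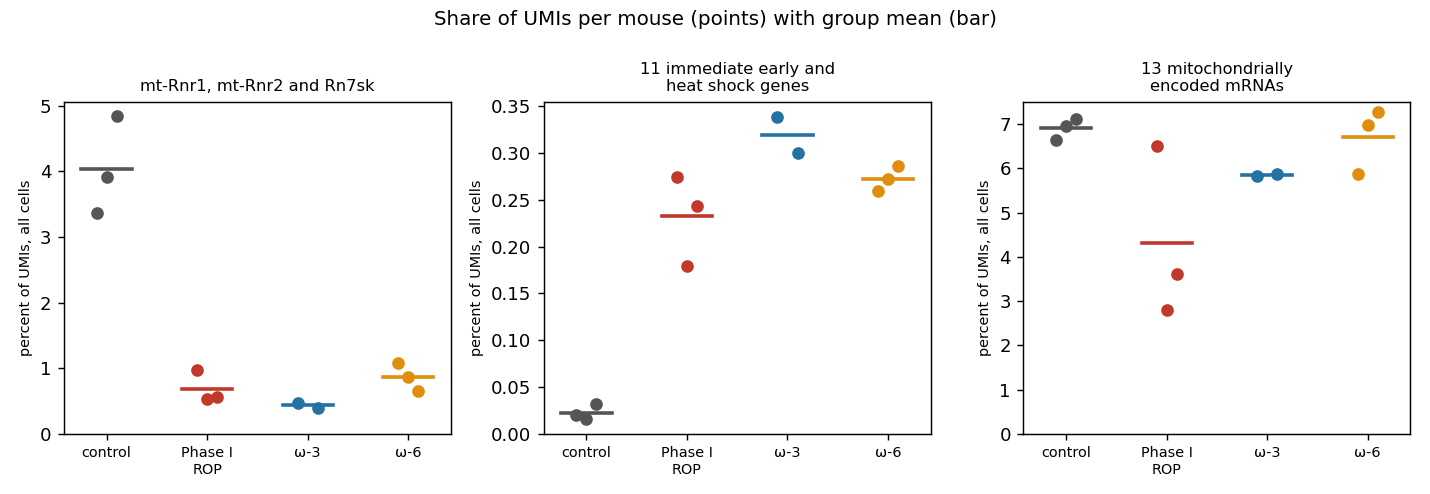
Percent of all UMIs of each mouse (points, with the group mean as a bar) held by the mitochondrial ribosomal RNAs with Rn7sk, by 11 immediate early and heat shock genes, and by the 13 mitochondrially encoded mRNAs. Controls were highest for the ribosomal set (3.37% to 4.84%) and lowest for the immediate early set, and the 3 Phase I ROP mice spread from 2.79% to 6.51% for the mRNAs.

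Ppargc1a encodes the best known of the coactivators, which is induced through CREB when energy demand rises. It lies at chr5:51454250-51567726 on the minus strand (GRCm38). Over the 11 mice its mean level was highest in cone-like cells (73.9 scaled CPM), followed by amacrine-like (52.1), rod-like (38.1), Müller glia-like (13.3) and bipolar-like cells (9.59). Cone-like cells were above amacrine-like cells in 9 of 11 mice, amacrine-like above rod-like cells in 10, rod-like above Müller glia-like cells in 10, and Müller glia-like above bipolar-like cells in 8. On this scale no pair of neighbours in this order was separated in every mouse, but on plain CPM amacrine-like cells were above rod-like cells in all 11. Control cone-like cells held only 5 UMIs of Ppargc1a, and in the other 8 mice cone-like cells were above amacrine-like cells in all 8. Its promoter is shown because it held the short CREB element TGACGT (in capitals, read here from the opposite strand as ACGTCA), which no other promoter of the 9 genes searched held. The 249 bases just before the gene on the minus strand, chr5:51567727-51567975 of GRCm38.p6 from RefSeq, read 5′ to 3′ as follows.
Ppargc1a: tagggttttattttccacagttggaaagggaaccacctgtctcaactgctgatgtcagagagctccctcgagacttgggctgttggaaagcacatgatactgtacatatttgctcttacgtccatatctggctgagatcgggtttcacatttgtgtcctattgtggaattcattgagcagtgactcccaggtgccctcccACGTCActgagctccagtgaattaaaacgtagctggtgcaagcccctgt
This element was in 6.47% of 32851 RefSeq promoter windows of the same 250 bases, searched on both strands. A match of letters is a description and not a bound site.

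The first comparison asked how these genes differed in the hyperglycaemic retina. Ppargc1a was higher in Phase I ROP than in control in rod-like, bipolar-like and amacrine-like cells and in the sum over all cells. In rod-like cells its level was 22.6, 10.8 and 22 scaled CPM in the control mice and 59.1, 38.6 and 56.3 in the Phase I ROP mice. In amacrine-like cells it was 31.3, 23.5 and 48.3 in controls and 64.9, 62.8 and 68.8 in Phase I ROP. In bipolar-like cells it was 0, 7.03 and 2.41 in controls and 15.0, 21 and 12.3 in Phase I ROP. In each of these classes every Phase I ROP mouse lay above every control mouse, as 53% of genes tested in rod-like cells, 55.3% in bipolar-like cells and 49.6% in amacrine-like cells also had mice of the 2 groups that did not overlap. The log2 fold change was 1.31 (SE 0.41, adjusted p = 0.0145) in rod-like cells, 2.29 (SE 0.62, adjusted p = 0.00824) in bipolar-like cells and 0.91 (SE 0.26, adjusted p = 0.0126) in amacrine-like cells by edgeR's quasi-likelihood test. The bipolar value rests on 7 control UMIs (0, 5 and 2). It lost its call without Phase I ROP mouse 2 (2.09, adjusted p = 0.0583 by edgeR), and did not pass the filter on low counts in sums thinned to equal depth or without the cells of the highest doublet scores.

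Cone-like cells gave the largest spread of Ppargc1a. Its level there was 25.9, 0 and 50.8 scaled CPM in controls, from 1, 0 and 4 UMIs, and 88.8, 181 and 92.5 in Phase I ROP. The mice did not overlap, as was so for 38.9% of genes tested in cone-like cells, and the log2 fold change of 1.86 (SE 0.68) missed the threshold at an adjusted p of 0.0582 by edgeR's quasi-likelihood test. In Müller glia-like cells Ppargc1a did not pass the filter on low counts, with 0, 13.2 and 2.79 scaled CPM in controls and 22, 23.4 and 29.2 in Phase I ROP, from at most 8 UMIs in a mouse. Over all cells the 3 control mice had 16.7, 13.1 and 20.3 scaled CPM and the 3 Phase I ROP mice 49.8, 50.8 and 49.9, a log2 fold change of 1.56 (SE 0.18, adjusted p = 5.44e-05 by edgeR). In a sum over all cells the share of a class and the RNA of its cells cannot be told apart. With cells drawn so that each of the 5 classes took the same share in every mouse (its mean share over the mice), the change was 1.17 (adjusted p = 0.0022 by edgeR).

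Ppargc1b encodes the close relative PGC-1β, which drives the same factors in tissues with high oxidative metabolism. It had its highest level in rod-like cells, with a mean of 105 scaled CPM over the 11 mice and above cone-like cells (61.6) in all 11. Bipolar-like cells (21.7), amacrine-like cells (11.6) and Müller glia-like cells (6.53) followed. Bipolar-like cells were above amacrine-like cells in 10 of 11 mice and amacrine-like above Müller glia-like cells in 9.

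In rod-like cells Ppargc1b was at 41.9, 25.2 and 76.1 scaled CPM in controls and 88.2, 111 and 141 in Phase I ROP. Every Phase I ROP mouse was above every control, where 53% of genes tested in these cells had groups that did not overlap. The log2 fold change of Ppargc1b was 1.03 (SE 0.32, adjusted p = 0.0148 by edgeR). Over all cells it was at 11, 7.17 and 17.3 in controls and 37.8, 44.8 and 51.8 in Phase I ROP, a change of 1.88 (SE 0.26, adjusted p = 1.69e-04 by edgeR). With the same class shares in every mouse this was 1.01 (adjusted p = 0.00738 by edgeR). In bipolar-like cells the groups overlapped slightly, at 15.2, 4.22 and 7.22 in controls and 19.5, 26.2 and 15.0 in Phase I ROP, and the change of 1.16 (SE 0.47) had an adjusted p of 0.0548 by edgeR. In amacrine-like cells Ppargc1b did not pass the filter on low counts, with 2, 4 and 2 UMIs in controls and 11, 21 and 10 in Phase I ROP, and with no filter its change was 2.10 (adjusted p = 0.00422 by edgeR).

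In cone-like cells no Ppargc1b UMI was seen in any control mouse (0 of 168167 UMIs), against 36 of 709704 UMIs in Phase I ROP, at 51.4, 61.8 and 37.7 scaled CPM. Taking 3 counts over the control group as the floor, the observed Phase I ROP level was 2.84-fold above that floor. Neither the counting error of the 36 UMIs nor the spread between mice is included. A rod transcript moved in the same direction in these cells. Gnat1, the transducin subunit of rods, stood in cone-like cells at 1.43% of its rod level in controls, 27.5% in Phase I ROP, 48.5% on the ω-3 diet and 68.1% on the ω-6 diet, and Ppargc1b stood there at 0%, 42.2%, 64.1% and 90.4% of its rod level. Sag, the arrestin of rods that cones also express, stood at 77.8%, 45%, 73.6% and 74.4%. The part of rod RNA in the cone level of Ppargc1b was not tested. In amacrine-like cells Gnat1 was at 22%, 3.41%, 7.88% and 7.6% of its rod level in control, Phase I ROP, ω-3 and ω-6. Ppargc1b was there at 5.74%, 12.9%, 13.1% and 10.1% in the same order, and Ppargc1a at 111% to 163%.

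The rod calls of both coactivators were lost in some subsets of cells or mice. Where the class was restricted to the cluster with rod markers among its leading genes, the log2 fold change was 1.11 for Ppargc1a (adjusted p = 0.0863) and 0.81 for Ppargc1b (adjusted p = 0.0633) by edgeR's quasi-likelihood test, both short of the threshold, and differed from the values of the whole class by less than their SE. Without Phase I ROP mouse 1 the rod call of Ppargc1a was lost (adjusted p = 0.0503), without Phase I ROP mouse 3 that of Ppargc1b (adjusted p = 0.0799), and without control mouse 2 the amacrine call of Ppargc1a (adjusted p = 0.0542), each in the same direction.

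**Figure D2:**
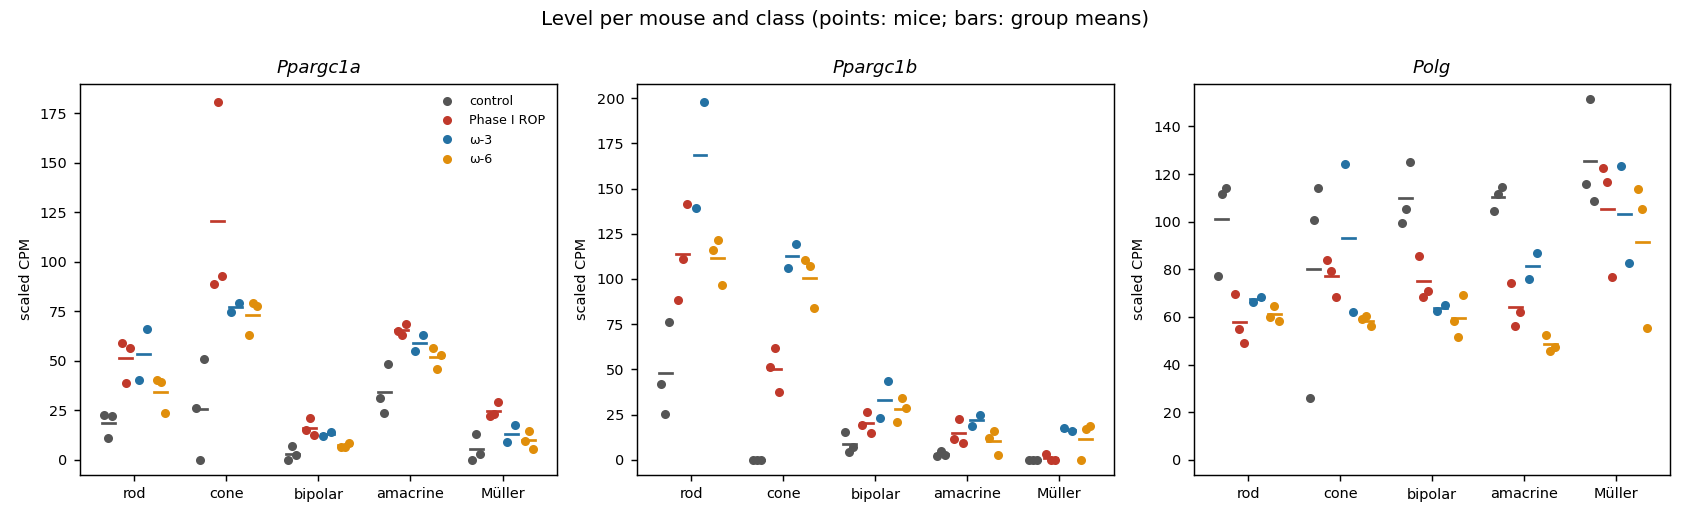
Scaled CPM of Ppargc1a, Ppargc1b and Polg in each mouse (points) and the group means (bars) in the 5 classes. In rod-like cells the Phase I ROP mice were above the controls for Ppargc1a (38.6 to 59.1 against 10.8 to 22.6) and below them for Polg (49.2 to 69.8 against 77.3 to 114), and Ppargc1b was at 0 in the control cone-like cells.

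Pprc1 encodes PRC, the coactivator that is induced when quiescent cells enter growth. It lies at chr19:46044886-46072915 and shares 329 bases with Ldb1 on the other strand. It was the least abundant of the coactivators, with 186 UMIs over all cells and mice, and in the comparison with controls it passed the filter on low counts only in the sum over all cells. There it was at 2.44, 1.69 and 2.37 scaled CPM in controls (6, 4 and 7 UMIs) and 3.22, 5.99 and 6.18 in Phase I ROP (11, 17 and 23 UMIs). The groups did not overlap, as for 57.7% of all genes tested over all cells, and the log2 fold change was 1.2 (SE 0.42, adjusted p = 0.0348 by edgeR). This call was lost by DESeq2 (adjusted p = 0.125), without any filter (adjusted p = 0.0527) and without each of 4 of the 6 mice in turn (adjusted p from 0.0672 to 0.109 by edgeR). The gene did not pass the filter without Phase I ROP mouse 3, with the same class shares in every mouse, in thinned sums or without the cells of the highest doublet scores.

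The DNA-binding factors that the coactivators work through gave no call. Nrf1, the activator of TFAM and of many respiratory chain genes, lies at chr6:30047988-30153458 and was at 27.8 to 46.1 scaled CPM over all cells of the 11 mice. Its highest mean was in rod-like cells (47.4), above cone-like cells (43.7) in 6 of 11 mice, but control cone-like cells held only 2 UMIs of it, and in the other 8 mice rod-like cells were above cone-like cells in 3. Esrra (chr19:6910977-6921813), which also acts on genes of fatty acid oxidation, was highest in amacrine-like cells (24.0), above bipolar-like cells (17.1) in 10 of 11 mice. Gabpa (chr16:84834925-84863779) was highest in Müller glia-like cells (31.1), above rod-like cells (18.9) in 8 of 11 mice, but there the controls alone ran from 8.28 to 64.1. Gabpa shares 701 bases with Atp5j and Esrra 73 bases with Trmt112, in each case on the other strand.

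Over all cells the 3 control mice had 32.9, 27.8 and 38.3 scaled CPM of Nrf1 and the Phase I ROP mice 39.2, 34.2 and 31.2. Gabpa was at 13, 15.2 and 23 in controls and 18.2, 16.9 and 20.7 in Phase I ROP. Esrra was at 24.8, 21.9 and 17.3 in controls and 19.6, 21.2 and 15.3 in Phase I ROP. The groups overlapped for all 3 factors, and the log2 fold changes were 0.06 (SE 0.18) for Nrf1, 0.10 (SE 0.25) for Gabpa and -0.21 (SE 0.22) for Esrra. The largest change of a factor in a single class was that of Nrf1 in amacrine-like cells, at 0.61 (SE 0.32, adjusted p = 0.141 by edgeR).

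The genes that copy and transcribe mitochondrial DNA divided into Polg and the rest. Tfam (chr10:71225464-71238280) and Tfb2m (chr1:179528055-179546267) were highest in bipolar-like cells (49.4 and 41.8 scaled CPM over the 11 mice), but above Müller glia-like cells, the next in order, in only 6 and 8 of 11 mice. Polrmt (chr10:79736123-79746581) was sparse, with 369 UMIs in all, and was highest in cone-like (10.1) and amacrine-like cells (10.0), which did not differ in order (5 of 11 mice). Over all cells Tfam was at 44.3, 27.8 and 35.2 in controls and 31.3, 39.1 and 41.9 in Phase I ROP. Tfb2m was at 31.3, 30.0 and 38.6 in controls and 33.1, 34.6 and 31.4 in Phase I ROP. Polrmt was at 6.50, 5.49 and 5.08 in controls and 6.44, 7.05 and 7.79 in Phase I ROP. The groups overlapped for each of these genes, with log2 fold changes of 0.05 (SE 0.19), -0.03 (SE 0.17) and 0.30 (SE 0.31).

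Polg, the polymerase that copies mitochondrial DNA, was lower in Phase I ROP. It lies at chr7:79446231-79466362 on the minus strand and shares 4034 bases with Fanci on the other strand. Whether the counting used strand is not given in the sources used here, so reads in that stretch are uncertain. Its mean level was highest in Müller glia-like cells (107 scaled CPM), above bipolar-like cells (78.3) in 9 of 11 mice, and bipolar-like, cone-like (75.9), amacrine-like (75.6) and rod-like cells (72.3) lay close together.

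In amacrine-like cells Polg was at 104, 112 and 115 scaled CPM in controls and 74.3, 56.3 and 62.1 in Phase I ROP. In rod-like cells it was at 77.3, 112 and 114 in controls and 69.8, 54.9 and 49.2 in Phase I ROP, and in bipolar-like cells at 99.6, 105 and 125 against 85.6, 68.2 and 71.1. No control mouse overlapped a Phase I ROP mouse in these classes, as for 53% of genes in rod-like, 55.3% in bipolar-like and 49.6% in amacrine-like cells. The log2 fold change was -0.81 (SE 0.18, adjusted p = 0.00349) in amacrine-like cells, -0.94 (SE 0.28, adjusted p = 0.0100) in rod-like cells and -0.55 (SE 0.20, adjusted p = 0.0354) in bipolar-like cells by edgeR's quasi-likelihood test. Over all cells it was -0.65 (SE 0.14, adjusted p = 0.00298). Müller glia-like cells overlapped, at 116, 152 and 109 in controls and 123, 117 and 76.6 in Phase I ROP, with a change of -0.16 (SE 0.30). Cone-like cells overlapped as well (-0.24, SE 0.51), on 1, 4 and 9 control UMIs.

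The fall of Polg depended on the scaling. TMM sets the scale from the bulk of genes, and with scaling by total UMIs alone, an alternative chosen after the data were seen, the median of all genes moved up by 0.30 in rod-like, 0.41 in bipolar-like and 0.35 in amacrine-like cells. Polg then changed by -0.64 (adjusted p = 0.0629) in rod-like, -0.14 (adjusted p = 0.572) in bipolar-like and -0.46 (adjusted p = 0.0535) in amacrine-like cells by edgeR, all short of the threshold, and by -0.39 (adjusted p = 0.033) over all cells. The coactivators kept their direction and calls under this scaling, and Ppargc1b in bipolar-like cells (1.57, adjusted p = 0.0112), Ppargc1a in cone-like cells (2.05, adjusted p = 0.0345), Nrf1 in amacrine-like cells (0.95, adjusted p = 0.0226) and Tfb2m in bipolar-like cells (0.83, adjusted p = 0.0473) were called in addition. In the rod cluster with rod markers among its leading genes Polg changed by -0.52 (adjusted p = 0.268). The rod and bipolar calls of Polg were also lost without control mouse 3 (adjusted p = 0.0530 and 0.102), Phase I ROP mouse 2 (0.0551 and 0.123) or Phase I ROP mouse 3 (0.0834 and 0.113), and without the filter on low counts.

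Of the 10 genes in 5 classes, 25 of 50 combinations passed the filter on low counts and 7 were called, 4 higher and 3 lower in Phase I ROP. By class these were 3 of 6 genes tested in rod-like cells, where 41% of all genes were called, 2 of 7 in bipolar-like cells (45.3% of all genes), 2 of 7 in amacrine-like cells (38.3%), 0 of 2 in cone-like cells (18.8%) and 0 of 3 in Müller glia-like cells (10.8%). Over all cells 4 of 10 were called, against 48.1% of all genes, and the same 4 had mice that did not overlap, against 57.7% of all genes. The shares called among these genes were near the background of each class or below it. The 0 in cone-like and Müller glia-like cells came with 1 and 0 genes at an unadjusted p under 0.05, and DESeq2 called none there either. The 6 genes other than the coactivators and Polg gave 14 tests in classes and 0 calls, with log2 fold changes from -0.47 for Esrra in amacrine-like cells to 0.64 for Tfam in rod-like cells and SEs of 0.273 to 0.426.

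**Figure D3:**
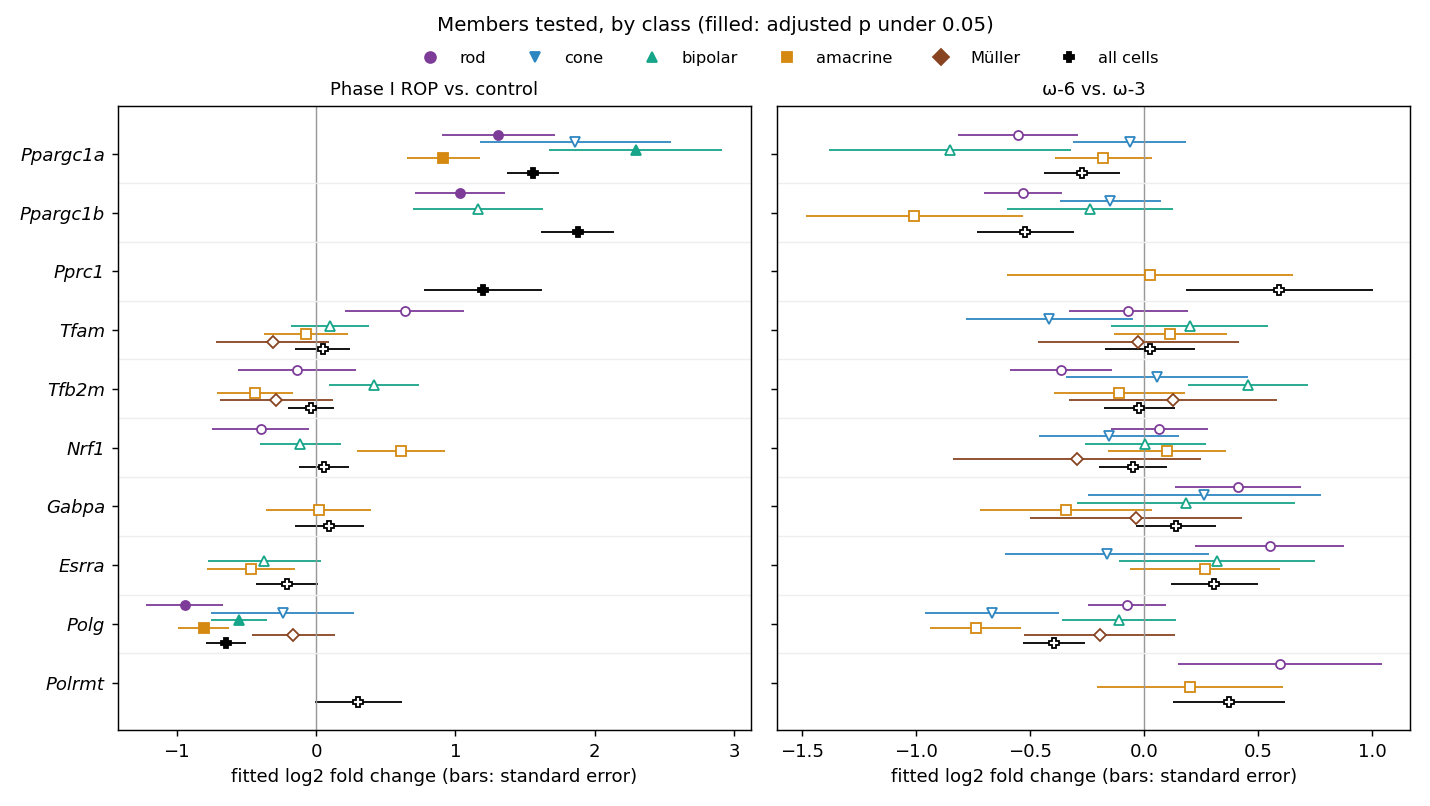
Fitted log2 fold change with its SE for each gene that passed the filter on low counts, by class (symbols), in Phase I ROP vs. control and in ω-6 vs. ω-3, with filled symbols at an adjusted p under 0.05. Ppargc1a reached 2.29 in bipolar-like cells and Polg fell by 0.94 in rod-like cells, and no symbol is filled for the diets.

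A call in one class and not in another does not show that the classes differed, and the difference of the Phase I ROP effect between classes was therefore tested for the 10 pairs of classes, with the mouse as a block. Of 67 tests of these genes 0 were called by edgeR's quasi-likelihood test, where 4.07% of all tests over the 10 pairs were, and 4 had an unadjusted p under 0.05. The lowest adjusted p was 0.145, for Nrf1 in rod-like against amacrine-like cells, where the effect was 1.07 higher (SE 0.47) in amacrine-like cells on the log2 scale. For Polg, the effect in Müller glia-like cells was 0.66 higher (SE 0.40, adjusted p = 0.396) than in rod-like cells.

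The promoters of 4 of the 10 RefSeq windows searched, which stand for 9 of the genes, held the Ets core CCGGAAG that GABPA reads, against 6.91% of all windows, on either strand. They are shown because the factor that reads this core and the genes that hold it are both among the 10. The core is in capitals (CTTCCGG where it lies on the opposite strand), within 38 to 93 bases of the RefSeq start, and the sites of Tfam, Polg and Gabpa lie inside the transcribed span of the GENCODE gene. The stretches are chr10:71238075-71238101 (minus strand) for Tfam, chr7:79466295-79466321 (minus) for Polg, chr10:79746608-79746634 (minus) for Polrmt and chr16:84835021-84835047 (plus) for Gabpa, all in GRCm38.p6.
Tfam: ctgccgcggaCCGGAAGtccgggcttc
Polg: aggacctcacCCGGAAGtccctctgca
Polrmt: cctaagagcgCTTCCGGcagtcgcaga
Gabpa: agggtaagtgCTTCCGGgtccctcagc
Whether Polg changed differently from the other 3 was not tested. The NRF1 core GCATGCGC was in 2 of the 10 windows (Esrra and Polrmt) and 2.26% of all, the SP1 box GGGCGG in 5 of 10 and 32.7% of all, and the ERRα core AAGGTCA in 0 of 10 and 4.08% of all. No search was made for Ppargc1b.

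**Figure D4:**
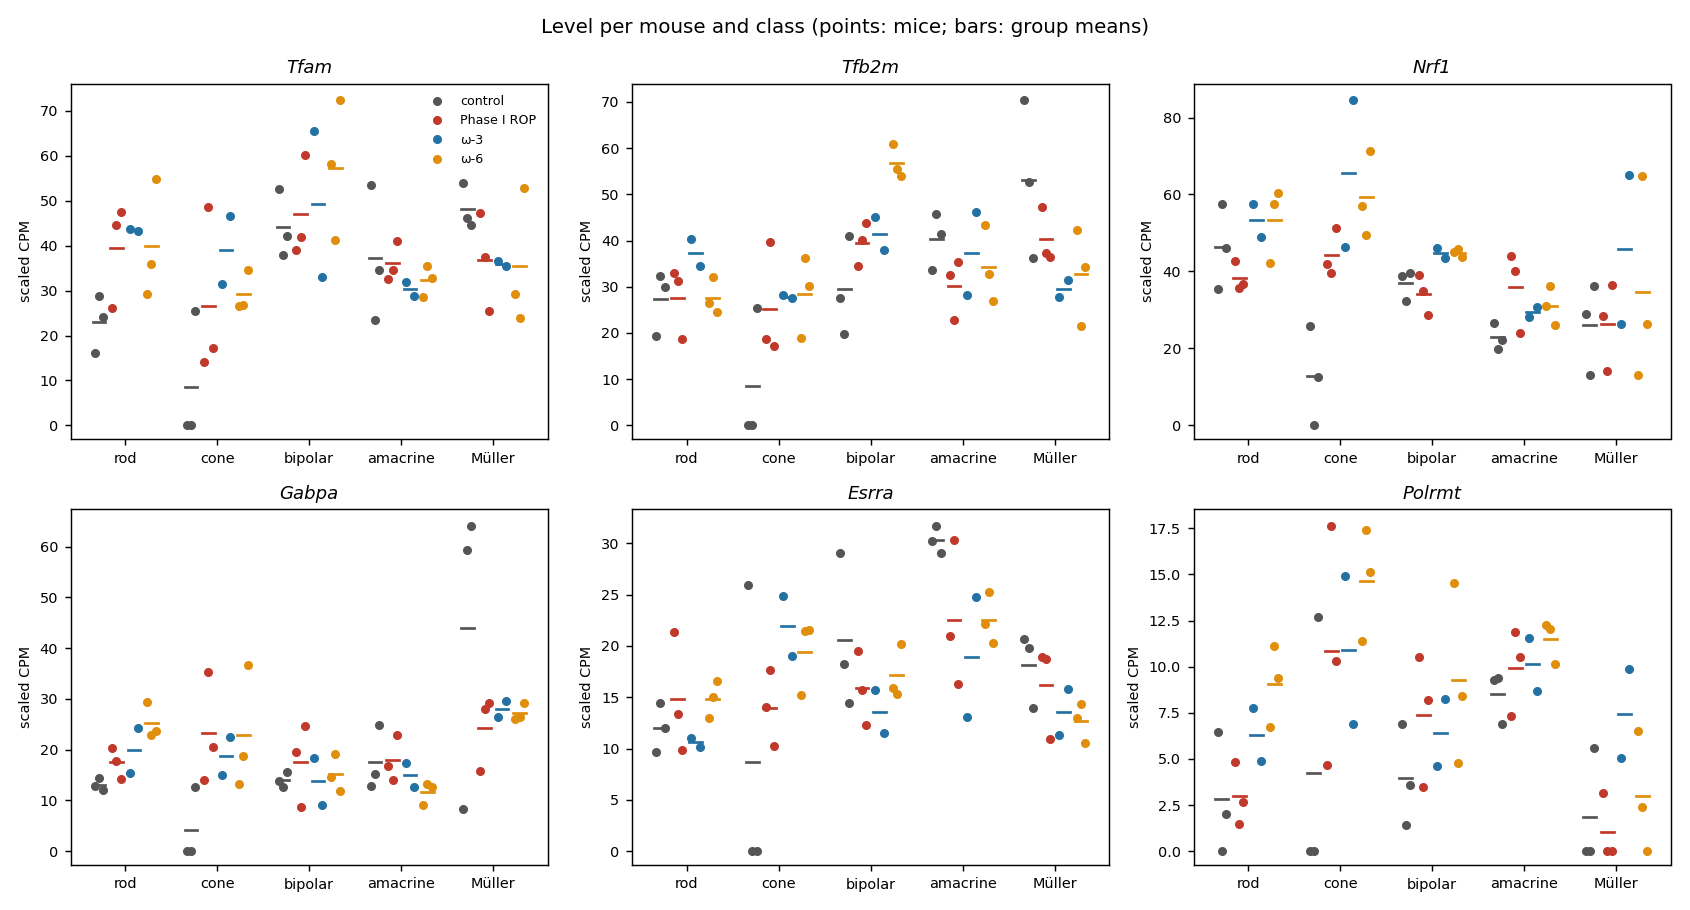
Scaled CPM of Tfam, Tfb2m, Nrf1, Gabpa, Esrra and Polrmt in each mouse (points) with group means (bars) in the 5 classes. Control and Phase I ROP mice overlapped in bipolar-like and Müller glia-like cells for all 6 genes, and 2 of the 3 control mice were at 0 in cone-like cells for Tfam, Tfb2m, Gabpa, Esrra and Polrmt.

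Around these genes, the called upstream regulators were mostly higher and the called respiratory chain genes mostly lower, the latter not in rod-like cells with scaling by total UMIs. These counts stand against the shares of all genes called. Over all genes 20.3% were higher and 20.8% lower in rod-like cells, 21.3% and 23.9% in bipolar-like, 17.8% and 20.5% in amacrine-like, 10.9% and 7.9% in cone-like and 5.81% and 5.03% in Müller glia-like cells. With scaling by total UMIs these shares were 30.5% and 15.3%, 37.5% and 13.2%, 32.9% and 11.5%, 15.6% and 5.76%, and 7.52% and 3.5%, in the same order. The lists were chosen with earlier results known, so nothing particular to a list is read from its count.

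Of 40 upstream regulators and partners (kinases, deacetylases, CREB and its coactivators, nuclear receptors), 15 of 33 tested were higher and 1 lower in rod-like cells (median log2 fold change 0.72, against 0.03 for all genes). In bipolar-like cells 16 of 33 were higher and 0 lower, in amacrine-like cells 15 of 34 higher and 1 lower, in cone-like cells 5 of 11 higher and 0 lower, and in Müller glia-like cells 0 of 15 moved, where 3 had an unadjusted p under 0.05. Creb1, the gene of CREB, was higher in 4 classes (1.81 in rod-like, 1.55 in bipolar-like, 1.01 in amacrine-like and 2.95 in cone-like cells). Whether CREB acts on Ppargc1a in these cells was not tested. Sp1, a factor of GC-rich promoters, Nr1d1, the clock repressor REV-ERBα, and Prkaa1, the catalytic AMPK subunit that phosphorylates PGC-1α, were each higher in 3 classes, by 1.76, 1.77 and 1.67 in rod-like cells. Mef2d, a partner of PGC-1α, was higher by 1.99 in rod-like cells. These genes kept their direction with scaling by total UMIs, where 20 of 33 in rod-like cells were higher.

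The nuclear genes known as targets of these factors, mainly subunits of the respiratory chain, went the other way. Of 28 such genes, 20 of 26 tested were lower and 0 higher in amacrine-like cells (median -0.85), 19 of 24 lower and 1 higher in bipolar-like cells (-0.91), 13 of 24 lower in cone-like cells (-0.87), 8 of 24 lower in rod-like cells (-0.47) and 5 of 24 lower in Müller glia-like cells (-0.46). Cox5a, a subunit of cytochrome c oxidase, fell in all 5 classes, from -0.87 in rod-like to -1.67 in bipolar-like cells. Cox7c of the same complex also fell in all 5, and Cox4i1, Cox5b and the complex III subunit Uqcrb fell in 4 each. With scaling by total UMIs rod-like cells turned to 4 higher and 1 lower, and Cox7c, Cox4i1 and Cox5b were then lower in 3 classes each. The rod median was -0.17, below a median of 0.33 for all genes, while 14 of the 20 amacrine and 13 of the 19 bipolar genes kept the call and 1 gene was higher in each of these classes.

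Of the 13 mitochondrially encoded mRNAs, which POLRMT transcribes with TFAM and TFB2M, 10 were lower in rod-like cells, 11 in cone-like, 12 in bipolar-like, 13 in amacrine-like and 1 in Müller glia-like cells, and 0 were higher in any of these. The counts lower with scaling by total UMIs were 10, 11, 9, 12 and 1. mt-Nd4l fell in all 5 classes, from -0.97 in Müller glia-like to -1.65 in amacrine-like cells, and mt-Atp8, mt-Cytb, mt-Nd4 and mt-Atp6 each fell in 4. Their summed share of all UMIs was 6.91% (6.65% to 7.12%) in controls and 4.31% (2.79% to 6.51%) in Phase I ROP. The Phase I ROP mice were at 6.51%, 2.79% and 3.62%. The diet mice, also given STZ, were at 5.82% and 5.86% (ω-3) and 5.87%, 6.98% and 7.28% (ω-6). The mitochondrial ribosomal RNA mt-Rnr2, from the same genome, fell by 2.88 over all cells (SE 0.28), the marker of library difference given above.

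Genes of mtDNA replication, transcription and RNA handling were mixed, with 2 higher and 2 lower of 21 tested in rod-like cells, 3 and 5 of 27 in bipolar-like cells, 0 and 4 of 25 in amacrine-like cells and 0 of 2 and 0 of 5 moved in cone-like and Müller glia-like cells (0 and 4 at an unadjusted p under 0.05). Polg2, the accessory subunit of the POLG enzyme, was lower in the same 3 classes as Polg, by -1.2 in rod-like, -1.90 in bipolar-like and -0.97 in amacrine-like cells. Rrm2b, which supplies nucleotides for mtDNA in resting cells, was lower in these 3 as well (-2.03, -2.03 and -0.77). Ssbp1, the single-strand binding protein of mtDNA, and Slirp, which stabilizes mitochondrial mRNAs, were lower in bipolar-like (-1.89 and -1) and amacrine-like cells (-1.08 and -1.18). Trmt10c, a subunit of mitochondrial RNase P, was higher in rod-like cells (2.46). With scaling by total UMIs the list had 2 higher and 1 lower in amacrine-like, 5 and 4 in bipolar-like and 2 and 2 in rod-like cells. In amacrine-like cells Polg2 (-0.62, adjusted p = 0.0769), Rrm2b (-0.43, adjusted p = 0.187) and Ssbp1 (-0.74, adjusted p = 0.0597 by edgeR) then lost the call. Slirp kept it there. The bipolar calls of these 4 genes held, as did the rod calls of Polg2 and Rrm2b.

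Of mitochondrial import and matrix chaperones, 13 of 38 tested were lower and 2 higher in amacrine-like cells and 13 of 37 lower and 2 higher in bipolar-like cells, but with scaling by total UMIs 3 were lower and 5 higher in bipolar-like cells and 9 lower and 6 higher in amacrine-like cells. The shares called were near or below those of all genes in both classes (38.3% and 45.3%). In rod-like cells 5 of 34 were higher and 2 lower, in cone-like cells 2 of 22 were lower, and in Müller glia-like cells 0 of 24 moved (6 at an unadjusted p under 0.05). Timm22, the core of the carrier translocase, and Vdac3, an outer membrane channel, fell in 4 classes each (with scaling by total UMIs, Timm22 in 3 and Vdac3 in 2), Pam16 and Tomm5 in 2 (then Pam16 in 1), and the nucleotide exchange factor Grpel2 was higher in 3.

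**Figure D5:**
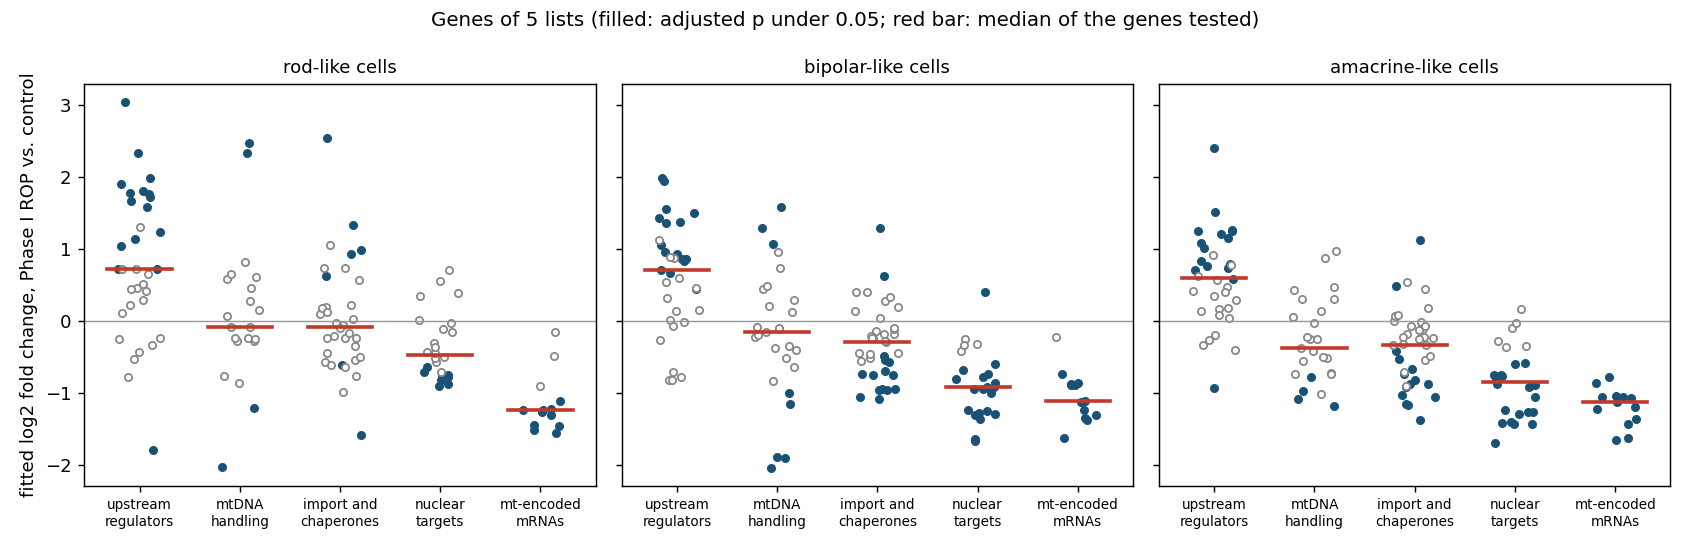
Fitted log2 fold change, Phase I ROP vs. control, of each gene tested in 5 lists (points, filled at an adjusted p under 0.05) with the list median (red bar) in rod-like, bipolar-like and amacrine-like cells. The medians of upstream regulators lie above 0 (0.72, 0.71 and 0.60) and those of the nuclear targets (-0.47, -0.91 and -0.85) and mitochondrially encoded mRNAs (-1.24, -1.10 and -1.12) below it.

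The second comparison asked whether the ω-6 and ω-3 diets differed in these genes among mice that all carried STZ. No gene was called in any class, in 40 tests, or over all cells, in 10. By edgeR's quasi-likelihood test 3 of the 40 and 2 of the 10 had an unadjusted p under 0.05, and DESeq2 called 0. Few genes of any kind were called in this comparison, 0.0159% of all genes in rod-like cells and 0% in each of the other classes and over all cells, where 1351 genes in rod-like cells had an unadjusted p under 0.05 and DESeq2 called 43.

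Ppargc1b had the lowest unadjusted p of the coactivators. In rod-like cells it was at 139 and 198 scaled CPM on the ω-3 diet and 116, 122 and 96.5 on the ω-6 diet, so every ω-6 mouse was below both ω-3 mice, as 28.5% of genes had diets that did not overlap. The log2 fold change was -0.53 (SE 0.17, unadjusted p = 0.00891, adjusted p = 0.376 by edgeR). Ppargc1a in rod-like cells was at 40.3 and 66.0 on the ω-3 diet and 40.4, 39.2 and 23.8 on the ω-6 diet, which overlapped, with a change of -0.55 (SE 0.26, adjusted p = 0.474 by edgeR). Over all cells the changes were -0.52 (SE 0.21) for Ppargc1b, -0.27 (SE 0.17) for Ppargc1a and 0.59 (SE 0.41) for Pprc1.

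Polg in amacrine-like cells was at 76.0 and 87.1 scaled CPM on the ω-3 diet and 52.4, 45.9 and 47.2 on the ω-6 diet. The diets did not overlap, as for 28.1% of genes in these cells, and the log2 fold change was -0.74 (SE 0.20, unadjusted p = 0.00242, adjusted p = 0.397 by edgeR). It was -0.66 (SE 0.29, adjusted p = 0.612) in cone-like cells and -0.39 (SE 0.14, adjusted p = 0.682) over all cells. Over all cells 4 of the 10 genes had diets that did not overlap (Polg, Gabpa, Esrra and Polrmt), against 24.9% of all genes. The factors and the other mtDNA genes ran from -0.42 for Tfam in cone-like cells to 0.60 for Polrmt in rod-like cells, with SEs of 0.214 to 0.543 and the lowest adjusted p at 0.551 by edgeR.

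Apart from the markers of handling and RNA quality, the wider lists gave 0 calls for the diets in every class. In rod-like cells the nuclear targets and the mitochondrially encoded mRNAs had medians of 0.34 and 0.46 (higher on the ω-6 diet). The unadjusted p was under 0.05 for 12 of 25 and 11 of 13 of them, against 10.7% of all genes. With scaling by total UMIs these were 6 of 25 and 8 of 13, with medians of 0.21 and 0.32, against 11.8% of all genes. With TMM scaling, 6 of 25 nuclear targets in cone-like and 1 of 25 in bipolar-like cells had an unadjusted p under 0.05. In amacrine-like and Müller glia-like cells 10 of 26 and 2 of 24 did. The mRNAs had 3, 5, 8 and 4 of 13 in these classes, in the same order. Over all genes these were 736 of 9160, 503 of 11942, 1305 of 13046 and 283 of 7945. Nothing particular to a list is read from these counts. The 2 genes called in rod-like cells were the mitochondrial ribosomal RNAs, mt-Rnr2 at 1.36 (SE 0.17, adjusted p = 0.046) and mt-Rnr1 at 1.48 (SE 0.20, adjusted p = 0.0495 by edgeR), higher on the ω-6 diet, and both calls were lost with scaling by total UMIs. The ribosomal set with Rn7sk made up 0.433% of all UMIs on the ω-3 diet and 0.864% on the ω-6 diet.

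Classes too small for a test gave pooled levels only, with exact Poisson intervals at 95% that cover counting error. In retinal ganglion cell-like cells (96 cells) Ppargc1a was at 39.6 CPM (30 to 51.3), Ppargc1b at 12.5 (7.4 to 19.7) and Polg at 68 (55.2 to 82.9). In endothelial-like cells (113 cells) there was no UMI of Ppargc1a in 682826, with an upper limit of 5.4 CPM, while Nrf1 was at 38.1 (24.9 to 55.8) and Polg at 63 (45.6 to 84.8). The leading genes of this cluster held 2 endothelial markers (Cldn5 and Cdh5) and 2 pericyte markers (Higd1b and Kcnj8). Its pooled levels may thus include pericytes. Astrocyte-like cells (47 cells) had Ppargc1a at 43 (22.2 to 75.1) and no UMI of Ppargc1b (0 to 13.2), and horizontal-like cells (31 cells) had 1 UMI of Ppargc1a and Esrra at 56.3 (34.9 to 86.1). Polg was seen in every class, from 56.7 CPM (25.9 to 108) in microglia-like cells upward.

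The genes whose log2 CPM followed these most closely over the 55 sums of 5 classes and 11 mice, among 8851 genes, were found as a description, since the sums share libraries, depth and class. Ppargc1a was most like Map2, a protein of neuronal dendrites (r = 0.880), Sgip1 (0.843) and Mab21l1 (0.822). Ppargc1b was most like Insm1 (0.912), Samd11 (0.904) and Cngb1, a subunit of the rod cation channel (0.899). Without the 3 sums of control cone-like cells, left out after the data were seen, these were 0.881, 0.883 and 0.831 for Ppargc1a and 0.900, 0.898 and 0.889 for Ppargc1b. Polg was most like Plekhg2 (0.753, and 0.747 without those sums). Tfam and Tfb2m were the most like one another (0.879), but at 0.563 without the control cone sums, and the closest genes of Nrf1 (Tnrc6b), Gabpa (Abhd17b) and Esrra (Rab12) fell from 0.809, 0.779 and 0.812 to 0.547, 0.493 and 0.534.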

How the data were processed

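The deposited matrix holds unnormalized UMI counts, whole numbers for 25311 genes in 20067 barcodes of 11 mice. Per the labels and the study's methods, reads from inDrop v3 libraries were processed with bcbio-nextgen and umis, barcodes with few reads were left out, and reads were assigned with Rapmap to transcripts of GRCm38 (the builds mm10 and GRCm38.p6 are named in the submitters' processing notes). Cells with more than 300 genes and genes in more than 10 cells entered Seurat 5.3.0 (2000 variable genes, 75 of 100 principal components, resolution 0.2), and clusters were named from marker genes. Scrublet in scanpy 1.11.5 marked under 0.5% of cells (the exact number moved with the number of threads) and was taken as not having worked, so no cell was left out as a doublet in the results given first.

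UMIs were summed per mouse and class and tested with edgeR 4.0.16 in R 4.3.3 (quasi-likelihood test, TMM, filterByExpr, only the 2 groups compared), with adjustment by Benjamini-Hochberg over all genes of a class and a threshold of 0.05. Class pairs were compared by the class by group interaction with the mouse as a block. Levels are TMM-scaled CPM in place of the plain CPM first planned, because control libraries held more ribosomal RNA. Levels between classes are descriptions, since the classes come from the same cells. Likeness is Pearson's r of log2 CPM with a prior count of 2, among genes with a median of at least 10 UMIs. A group at 0 was given a floor of 3 counts over the group. Intervals are exact Poisson at 95%. The fits were tested on simulated data.

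Genes named are the 10 members and, from each list, up to 5 genes called in the most classes in 1 direction, ties by the larger mean change. The members and the lists (upstream regulators and partners, mtDNA replication, transcription and RNA handling, mitochondrial import and matrix chaperones, nuclear genes known as targets of these factors, mitochondrially encoded mRNAs, and markers of handling and RNA quality) were chosen with earlier results of these data known. The alternatives tried were median-of-ratios scaling, DESeq2 1.42.0, a replicate block, no filter, 1 fit over the 4 groups, each mouse left out, cells with more than 500 genes, removal of the 5% highest doublet scores, thinned sums, rod clusters by leading genes and equal class makeup. Scaling by total UMIs, and likeness without control cone sums, were chosen after seeing the data. Values of 1 rod marker are not reported here. Gene positions are from GENCODE M21 of GRCm38 and promoters from RefSeq.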

Additional observations from a re-analysis of the deposited data

How the results depend on the processing

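For Phase I ROP vs. control, the count of called genes and classes (7 of 25) ran from 4 to 9 when each mouse was left out in turn, with 4 without Phase I ROP mouse 2 (of 26 tested), and was 4 where clusters were kept only with a marker among their leading genes, which leaves the largest rod cluster. With the replicate block it was 7, and 4 over all cells, and the block changed no call. Mice of the same number correlated at -0.0548 to 0.154 in their deviations from the group means (0.0423 to 0.273 for the diets, with 2 pairs), so the numbers were not taken to pair the mice. For the diets 0 genes were called under every alternative that was run. Of the log2 fold changes of the genes and classes followed singly (those of the coactivators and Polg that passed the filter, all 10 genes over all cells, and the extremes of the rest), 451 kept direction and side of the threshold, 26 kept direction and lost the call, 5 gained one and 19 changed sign. Beyond these, at least 1 alternative added a call of Nrf1 in amacrine-like, Tfb2m in bipolar-like and Ppargc1b in amacrine-like and cone-like cells. Those that changed sign had small values. Tfb2m over all cells was 0.23 with total UMIs, 0.0077 with no filter, 0.049 without the highest doublet scores, 0.038 in thinned sums and 0.027 with equal class makeup, and -0.10 to 0.089 with each mouse left out. Nrf1 over all cells was -0.0021 without the highest doublet scores, -0.051 with equal class makeup and -0.046 to 0.18 with each mouse left out. Gabpa over all cells was -0.018 in thinned sums and -0.059 to 0.38 with each mouse left out, Tfam -0.094 to 0.23, and Esrra 0.052 with total UMIs. Polg was 0.023 with no filter and -0.54 to 0.21 with each mouse left out in cone-like cells, and -0.30 to 0.022 in Müller glia-like cells. The cause was not tested. Depth limits the low genes: Pprc1 and Polrmt passed the filter in no class of Phase I ROP vs. control, and control cone-like cells held 168167 UMIs in all.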
